A study of Homo sapiens with 16 samples.

Results

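The genes of ferritin and cellular iron handling were followed across every condition of an array experiment on LP-1, a human multiple myeloma cell line with a TRAF3 deletion or mutation. The set holds 9 genes, namely FTH1, FTL, TFRC, SLC11A2, SLC40A1, ACO1, IREB2, NCOA4 and BLVRB, taken as every array probe whose RefSeq accession belongs to one of these symbols. They were read by 16 of the 50599 gene probes, out of 20503 named genes on the array, and all 16 were among the 33731 probes that could be tested. FTH1 was read by 4 probes, FTL by 3, SLC11A2 and NCOA4 by 2 each and the other genes by 1 each. The values below are for the brightest probe of a gene, that with the highest mean log2 signal over the 16 arrays, unless another is named.

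Both lines had been made with a lentiviral vector and sorted as eGFP-positive pools. LP-1-cIAP2-eGFP carries pIRES2-cIAP2-eGFP and over-expresses cIAP2, and LP-1-eGFP carries the eGFP vector alone and is the control. Each line was left untreated or given 10 nM bortezomib, a proteasome inhibitor, for 6 h or 24 h, which gives 8 conditions with 2 biological replicates each and 16 arrays in all. The arrays have 1 colour, and the level of a gene is its log2 signal after quantile normalization, in arbitrary units that can be compared between arrays for 1 probe but not between probes. In this bulk RNA, fewer cells and less of a transcript per cell cannot be told apart. The p-values measure the spread between replicate cultures of 1 line.

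Iron enters most cells as transferrin bound to the transferrin receptor TFRC and leaves the endosome through SLC11A2 (DMT1). Iron that is not used at once is stored inside a shell of ferritin heavy (FTH1) and light (FTL) chains, is freed again when the receptor NCOA4 takes ferritin to the lysosome, and leaves the cell through SLC40A1 (ferroportin). The iron regulatory proteins, encoded by ACO1 (IRP1) and IREB2 (IRP2), bind a stem-loop in the messages of this system when iron is low, which blocks translation of ferritin and protects the TFRC message. BLVRB is a flavin and biliverdin reductase, placed here with heme breakdown. Plasma cells and myeloma cells secrete large amounts of protein and depend on the proteasome.

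The binding site of the iron regulatory proteins is shown here because it is the element that links ferritin to the 2 regulators measured on the same arrays. The stretch below is the sense strand of FTL in RefSeq, bases 21 to 50 of the transcript at chr19:48965329-48965358 on the plus strand of GRCh38.p14. The capitals mark the loop at bases 39 to 44.
FTL: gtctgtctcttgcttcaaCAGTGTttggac
The motif searched was a C, then any 5 bases, then CAGTGN, where N is any base, on the transcript strand only and in the first 50 transcribed bases. It was found in 1 of 13 windows that belong to 8 of the 9 genes, that of FTL, and in 586 of 35116 windows of all genes (1.67%). FTH1 was not searched, and in the other genes an element beyond the first 50 bases could not be found. A match describes these letters and was not tested as a binding site.

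The arrays carried the marks of plasma cells. SDC1, TNFRSF17, XBP1, IRF4, MZB1 and CD38 were well above background on all 16 arrays, PRDM1 on 15 and SLAMF7 on 13. MS4A1, PAX5, CSF1R and CD163, which mark B cells and macrophages, were above background on none, while KRT8 was above it on all 16. Markers of T cells and monocytes lay between, with CD3E above background on 10 arrays, CD3D on 12, CD2 on 15 and CD14 on 13, and those of red cells, epithelium and liver were above it on 5 (HBB), 2 (EPCAM) and 4 (ALB). The part of other cell types in the results below was not tested. BIRC3, the gene of cIAP2, was lower in untreated cells of the cIAP2 line than in untreated control cells (log2 difference -1.57, SE 0.11, adjusted p = 2.243e-05). Per the study's methods this probe lies in the 3′ UTR and reads only the endogenous message, so it does not check the transgene. A single array stood apart. In the cIAP2 line treated for 24 h, replicate 1 was dim, with 35.45% of spots well above background against 48.96 to 71.08% on the others, and the SD of the difference between its log2 values and those of its replicate was 1.48 against 0.50 to 0.77 for the other conditions. Several results are given with and without it.

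FTH1, the heavy chain that carries the ferroxidase centre of ferritin, was lower in LP-1-cIAP2-eGFP than in LP-1-eGFP, and its 4 probes did not read the same difference. The brightest probe by this rule was A_33_P3253249, with a mean of 17.64 against 17.60 for A_21_P0013796, whose median was the higher (17.69 against 17.67). It ranged from 17.68 to 17.93 with a median of 17.87 (log2 signal) on the 8 control arrays and from 17.18 to 17.66 with a median of 17.43 on the 8 LP-1-cIAP2-eGFP arrays. The lines did not overlap, although the lowest control array, an untreated 24 h replicate, lay just above the highest array of the other line, the dim bortezomib array. The line difference averaged over the 4 treatment and time conditions was -0.43 (SE 0.07, adjusted p = 0.00206), or 1.35-fold lower. Over all probes tested, 9.84% were called lower and 6.26% higher in this comparison. Of the 9 genes, FTH1 and ACO1 were called lower and none higher.

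Probe A_24_P58337 showed the FTH1 difference at its widest. It ran from 17.75 to 18.12 with a median of 17.94 in the control and from 16.52 to 17.24 with a median of 16.97 in LP-1-cIAP2-eGFP, a gap between the lines with no array in it. Its line difference was -1.02 (SE 0.07, adjusted p = 8.872e-06), or 2.02-fold lower. Probe A_21_P0013796 behaved much like it, with 17.91 to 18.25 in the control, 16.75 to 17.48 in the cIAP2 line and a line difference of -0.96 (SE 0.07, adjusted p = 2.19e-05). Probe A_32_P342064 did not pass the test. Its control arrays lay between 17.13 and 17.46 and those of LP-1-cIAP2-eGFP between 16.88 and 17.38, so the lines overlapped, and its line difference was -0.13 (SE 0.08, adjusted p = 0.32, 95% interval -0.30 to 0.04).

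**Figure D1:**
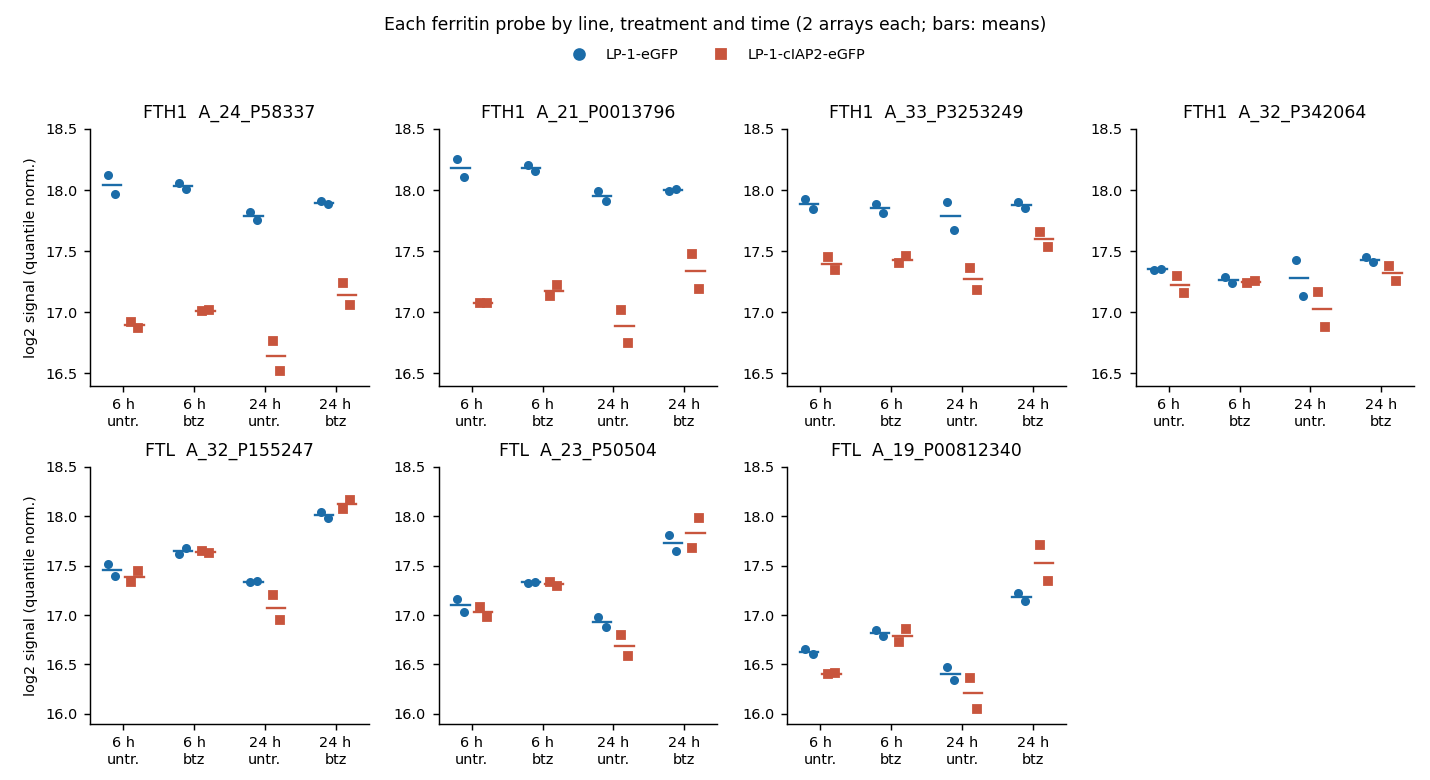
Log2 signal (quantile normalized, vertical axis) of the 4 FTH1 and 3 FTL probes in untreated (untr.) and bortezomib (btz) cells at 6 h and 24 h; circles are LP-1-eGFP, squares LP-1-cIAP2-eGFP, each point is an array and each bar the mean of 2, and the vertical axis covers a wider range in the FTL row. The lines lie about 1 log2 unit apart for A_24_P58337 and overlap for A_32_P342064, while all 3 FTL probes are highest with bortezomib at 24 h.

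All 4 probes are annotated to 1 FTH1 accession, and the disagreement was larger than the spread between replicates. The contrast between 2 probes was taken within each array and compared between the lines by an exact two-sided permutation of line labels within each treatment and time condition (1296 relabelings). The line difference of A_24_P58337 was 0.89 log2 units further below 0 than that of A_32_P342064, a contrast of -0.89 that ran from -1.02 to -0.64 over the 4 conditions (exact p = 0.00154, the smallest that the permutations can give; Benjamini-Hochberg p = 0.00185). All 6 pairs of FTH1 probes passed. The closest pair, A_21_P0013796 and A_24_P58337, differed by 0.06 (exact p = 0.0108), and the other 5 pairs each gave the smallest possible p. The 3 FTL probes behaved differently. None of their 3 pairs passed, with contrasts between -0.03 and -0.002 (exact p = 0.781 to 0.961).

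The FTH1 difference was smallest with bortezomib at 24 h for the brightest probe and for the 2 probes with wide differences. For A_24_P58337 it was -1.15 in untreated cells at both 6 h and 24 h. Under bortezomib it was -1.02 after 6 h and -0.75 after 24 h, and each of the 4 passed the test (adjusted p = 0.00168, 0.00178, 0.00329 and 0.0131). The change of this difference with bortezomib at 24 h was 0.39 (SE 0.19, adjusted p = 0.63) and did not pass. The study's ANOVA cutoffs were applied here with limma, as adjusted p under 0.001 for the averaged line difference and over 2-fold between the untreated lines. The study's further selection by a moderated t-test was left out. This rule took 2 of the 4 FTH1 probes, A_21_P0013796 and A_24_P58337, and no other probe of the 9 genes. That rule called 1.76% of all probes lower in LP-1-cIAP2-eGFP. Within slide 1, which held 6 arrays of LP-1-cIAP2-eGFP and 2 of the control, the line difference of the brightest FTH1 probe was -0.35, and within slide 2, with the reverse split, it was -0.60. Those of A_24_P58337 were -0.91 and -1.26. Each slide gave a value for 2 of the 4 treatment and time conditions.

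RefSeq lists 27 processed copies named FTH1P and 20 named FTLP, and the ferritin family holds related intronless genes. FTHL17, a ferritin heavy chain-like gene, read between 15.32 and 16.15 on the control arrays and between 12.86 and 15.03 on those of LP-1-cIAP2-eGFP, a line difference of -2.18 (SE 0.19, adjusted p = 5.088e-05). Its highest LP-1-cIAP2-eGFP value, 15.03, came from the dim array, and the replicate of that array read 13.56. FTMT, mitochondrial ferritin, read 6.61 to 7.41 in the control and 5.35 to 6.18 in the other line. Its fitted line difference was -1.30 (SE 0.09, adjusted p = 1.196e-05). That fit includes values not above background, since 3 of its 4 LP-1-cIAP2-eGFP arrays under bortezomib were not well above it. In untreated cells the FTMT line difference was -1.28 (SE 0.13, adjusted p = 0.000276). Probe sequences were not used here, and whether a probe reads more than 1 of these genes was not tested.

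ACO1 was the other gene of the set that differed between the lines. Its control arrays ranged from 10.22 to 10.62 with a median of 10.41, and its LP-1-cIAP2-eGFP arrays from 9.78 to 10.15 with a median of 9.92, with no overlap. The line difference was -0.49 (SE 0.07, adjusted p = 0.00125), or 1.40-fold lower, and it was -0.54 within slide 1 and -0.43 within slide 2. IREB2, the second iron regulatory protein, lay the other way, with a line difference of 0.18 (SE 0.07, adjusted p = 0.115) that did not pass. The remaining 6 genes had line differences between -0.29 for SLC40A1 and 0.23 for BLVRB (adjusted p = 0.0627 or more). That of SLC40A1 was -0.07 (adjusted p = 0.792) without the dim array and -0.52 (adjusted p = 0.023) without the replicate of that array. The median over the 9 genes was 0.10 and that over all probes -0.02. Without the dim array NCOA4 (0.16, adjusted p = 0.0431) and BLVRB (0.27, adjusted p = 0.0109) were also called higher in LP-1-cIAP2-eGFP, so that 4 of 9 genes passed, beside 11.1% of all probes called higher and 12.2% lower.

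At 24 h bortezomib was followed by a change in ferritin light chain, transferrin receptor and biliverdin reductase in both lines. In LP-1-eGFP, FTL, SLC11A2, IREB2 and BLVRB rose and TFRC fell, which is 4 genes higher and 1 lower of 9, beside 9.81% of all probes higher and 11.2% lower. In the cIAP2 line the same 4 rose and TFRC and SLC40A1 fell, beside 11.1% of all probes higher and 17.5% lower. With the dim array left out, TFRC fell there (-1.54) and FTL (1.09), SLC11A2 (0.92), IREB2 (0.61), BLVRB (2.42) and NCOA4 rose. The median change of the 9 genes was 0.37 in the control and 0.33 in LP-1-cIAP2-eGFP, against -0.03 and -0.16 over all probes. Scaling each array to its 75th percentile moved the median of all probes in LP-1-cIAP2-eGFP at 24 h from -0.16 to 0.21, and relative to those medians TFRC changed by -1.40 or -2.004, FTL by 1.21 or 1.20 and BLVRB by 2.42 or 1.84.

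**Figure D2:**
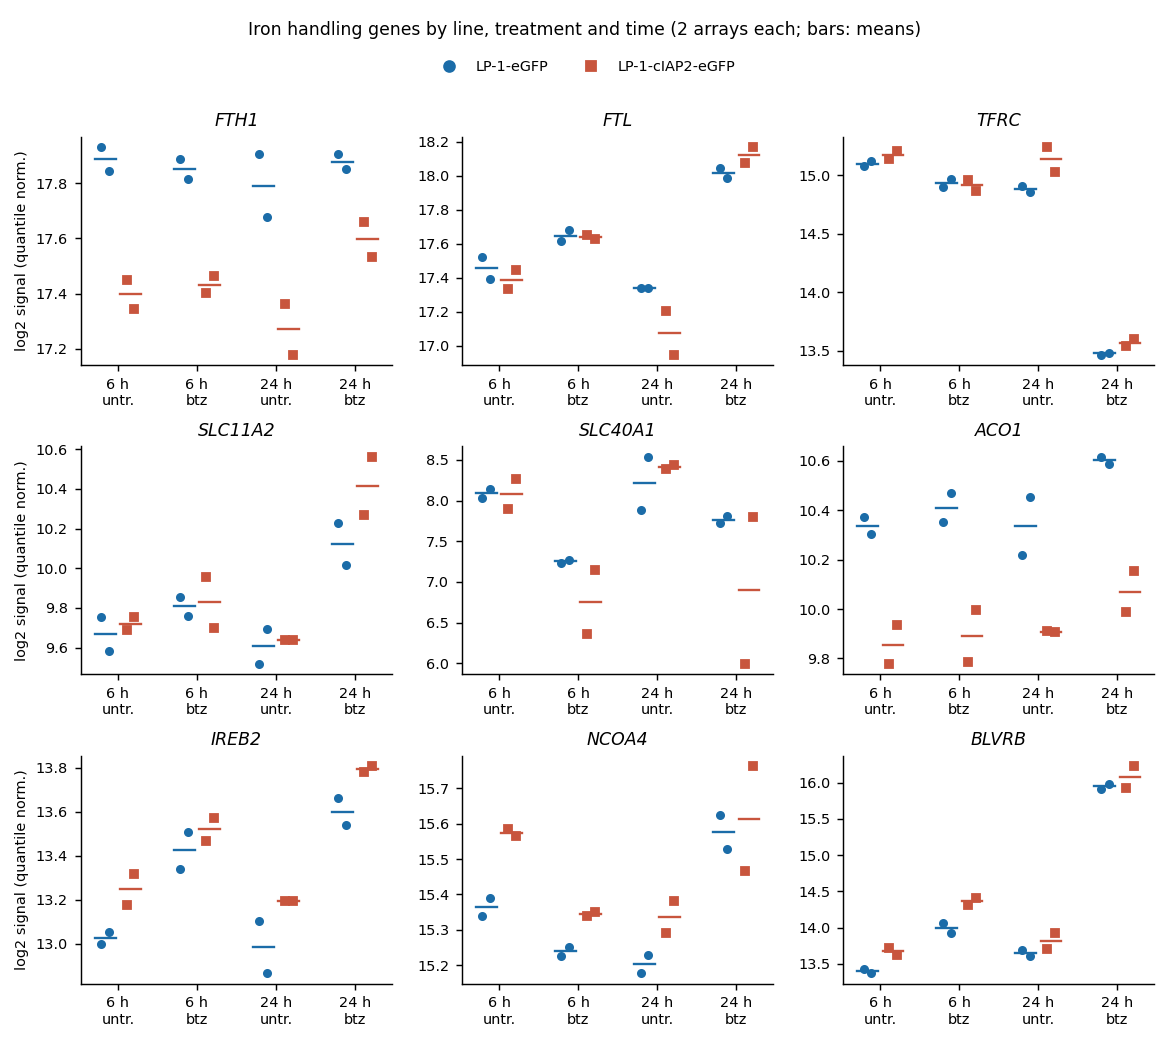
Log2 signal (quantile normalized, vertical axis, a separate range in each panel) of the 9 genes, each by its brightest probe, in untreated (untr.) and bortezomib (btz) cells at 6 h and 24 h; circles are LP-1-eGFP, squares LP-1-cIAP2-eGFP, each point is an array and each bar the mean of 2. TFRC drops to 13.47 to 13.60 and BLVRB climbs to 15.91 to 16.23 with bortezomib at 24 h in both lines, and FTH1 and ACO1 separate by line.

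FTL codes for the light chain, which supports mineral formation in the ferritin core. In LP-1-eGFP at 24 h the untreated arrays read 17.34 and 17.34 and the bortezomib arrays 18.05 and 17.98. In LP-1-cIAP2-eGFP the untreated arrays read 17.21 and 16.95 and the bortezomib arrays 18.08 and 18.17. All 4 treated arrays lay above all 12 other arrays of the experiment. The change was 0.68 (SE 0.13, adjusted p = 0.00516) in the control, or 1.60-fold, and 1.04 (SE 0.13, adjusted p = 0.000359) in LP-1-cIAP2-eGFP, or 2.06-fold. The other FTL probes gave 0.80 and 0.78 in the control and 1.14 and 1.32 in LP-1-cIAP2-eGFP, and each passed, although the call of A_19_P00812340 in the control was lost without bortezomib 24 h replicate 1 (0.74, adjusted p = 0.0511). The difference between the lines was 0.37 (95% interval -0.05 to 0.79, adjusted p = 0.63) and did not pass, and neither did the widest of the 3 probes, A_19_P00812340 (0.54, 95% interval 0.03 to 1.06, adjusted p = 0.609).

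The FTH1 probes gave mixed results at 24 h. The brightest probe changed by 0.09 (SE 0.14, adjusted p = 0.76) with bortezomib at 24 h in LP-1-eGFP and by 0.33 (SE 0.14, adjusted p = 0.105, 95% interval 0.02 to 0.63) in LP-1-cIAP2-eGFP. The second value passed with 75th percentile scaling (0.56, adjusted p = 0.0391) and among probes above background on all 16 arrays (0.33, adjusted p = 0.0276). FTH1 was not tested against FTL. The 2 probes with wide line differences passed in LP-1-cIAP2-eGFP, A_21_P0013796 at 0.45 (adjusted p = 0.0458) and A_24_P58337 at 0.50 (adjusted p = 0.0203), and neither passed without the dim array (0.31, adjusted p = 0.153, and 0.41, adjusted p = 0.0532) or with normexp background correction (0.02, adjusted p = 0.959, and 0.15, adjusted p = 0.546). Both calls were also lost with no filter on dim probes, a slide block and array weights. That of A_21_P0013796 was lost with the authors' table (adjusted p = 0.0523) and in 15 of the 16 fits that left out 1 array, and that of A_24_P58337 also without untreated 24 h replicate 2 (0.38, adjusted p = 0.148).

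TFRC, the receptor through which transferrin iron is taken up, showed the clearest fall. The control arrays at 24 h read 14.91 and 14.86 untreated and 13.47 and 13.48 with bortezomib, and those of LP-1-cIAP2-eGFP read 15.24 and 15.03 untreated and 13.54 and 13.60 with bortezomib. The 4 treated arrays were the lowest of the 16 and did not overlap the rest. TFRC fell by 1.41 (SE 0.12, adjusted p = 6.54e-05), or 2.65-fold, in LP-1-eGFP and by 1.57 (SE 0.12, adjusted p = 2.777e-05), or 2.96-fold, in LP-1-cIAP2-eGFP. This probe is the mean of 10 spots. The lines differed by -0.16 in this response (95% interval -0.55 to 0.24, adjusted p = 0.729).

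SLC11A2, which carries iron out of the endosome, gave a call on 1 of its 2 probes with the main processing. Probe A_23_P139820 read 9.52 and 9.70 untreated against 10.23 and 10.02 with bortezomib in the control, and 9.64 and 9.64 against 10.27 and 10.56 in LP-1-cIAP2-eGFP. The treated arrays lay above the untreated ones in both lines. The change was 0.52 (SE 0.16, adjusted p = 0.0478) in LP-1-eGFP and 0.78 (SE 0.16, adjusted p = 0.0056) in LP-1-cIAP2-eGFP. The LP-1-eGFP call was lost in 14 of the 16 fits that left out 1 array, and with 75th percentile scaling, normexp, the authors' table, no filter and a slide block, and that in LP-1-cIAP2-eGFP with array weights (adjusted p = 0.154). The second probe, A_24_P381494, changed by 0.10 (adjusted p = 0.853) and 0.33 (adjusted p = 0.439), with 1 untreated LP-1-cIAP2-eGFP array missing because its spot was called an outlier. Without the dim array its change in LP-1-cIAP2-eGFP was 0.76, between 1 treated and 1 untreated array. With normexp background correction that change was 0.64, again against 1 untreated array, and it passed limma's test. The line difference of this probe, 0.22, also passed with normexp. With the mean of both probes neither line passed (0.31, adjusted p = 0.356, and 0.55, adjusted p = 0.12).

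SLC40A1, the iron exporter, gave a call in LP-1-cIAP2-eGFP at 24 h that most fits leaving out 1 array lost. It read 8.38 and 8.44 untreated and 5.99 and 7.80 with bortezomib, and the 5.99 came from the dim array, where it was not well above background. The change of -1.52 (SE 0.49, adjusted p = 0.0447) became -0.61 (adjusted p = 0.237) without that array and -2.42 without its replicate. The call was lost in 13 of the 16 fits that left out 1 array, and with the authors' table, no filter, a slide block and array weights. In the control the change at 24 h was -0.45 (SE 0.49, adjusted p = 0.632). At 6 h the bortezomib arrays read 7.24 and 7.27 against 8.04 and 8.14 in LP-1-eGFP and 6.37 and 7.15 against 7.90 and 8.26 in LP-1-cIAP2-eGFP. The groups did not overlap in either line, but the changes of -0.83 (adjusted p = 0.648) and -1.33 (adjusted p = 0.33) did not pass. With array weights both passed (adjusted p = 0.0189 and 0.0241). Without the dim array the second did (adjusted p = 0.0359) and the first did not (adjusted p = 0.134).

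IREB2, whose protein is itself a target of the proteasome in iron-replete cells, read 13.10 and 12.87 untreated against 13.66 and 13.54 with bortezomib at 24 h in LP-1-eGFP. In LP-1-cIAP2-eGFP it read 13.19 and 13.19 against 13.78 and 13.81. The treated arrays lay above the untreated ones, and the change was 0.61 (SE 0.14, adjusted p = 0.0102) in the control and 0.60 (SE 0.14, adjusted p = 0.00919) in LP-1-cIAP2-eGFP. Scaled to the 75th percentile it was 0.39 (adjusted p = 0.184) and 0.34 (adjusted p = 0.21). The call in the control was also lost with normexp (0.63, adjusted p = 0.0649), without untreated 24 h replicate 2 (0.50, adjusted p = 0.0727) and without bortezomib 24 h replicate 1 (0.55, adjusted p = 0.0737), and that in LP-1-cIAP2-eGFP with array weights (adjusted p = 0.229) and without its untreated 24 h replicate 2 (0.60, adjusted p = 0.0503). ACO1 changed by 0.27 (adjusted p = 0.255) and 0.16 (adjusted p = 0.429).

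NCOA4, the ferritin receptor of autophagy, changed by 0.37 (SE 0.13, adjusted p = 0.0782) in LP-1-eGFP and by 0.28 (SE 0.13, adjusted p = 0.147) in LP-1-cIAP2-eGFP at 24 h. Without the dim array both passed, at 0.37 (adjusted p = 0.0128) and 0.43 (adjusted p = 0.0207), and without the replicate of that array the value in LP-1-cIAP2-eGFP was 0.13 and did not pass. The second NCOA4 probe, A_33_P3319463, changed by 0.18 (adjusted p = 0.626) in the control and by 0.58 (adjusted p = 0.0501) in LP-1-cIAP2-eGFP. The latter passed among probes above background on all 16 arrays (adjusted p = 0.0166), with a replicate block (adjusted p = 0.0131), without that replicate (0.75, adjusted p = 0.0152) and without either LP-1-eGFP bortezomib 24 h array (adjusted p = 0.0414). With the dim array left out this probe passed in neither line (0.18, adjusted p = 0.492, and 0.41, adjusted p = 0.201). After 75th percentile scaling the values of the brightest probe were 0.12 and 0.01 (adjusted p = 0.811 and 0.974), and relative to the median of all probes the LP-1-cIAP2-eGFP value then turned to -0.19.

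BLVRB had the largest change of the 9 genes. At 24 h the control arrays read 13.69 and 13.61 untreated and 15.91 and 15.99 with bortezomib, and the LP-1-cIAP2-eGFP arrays 13.70 and 13.92 untreated and 15.92 and 16.23 with bortezomib. The 4 treated arrays were the highest of the 16. BLVRB rose by 2.30 (SE 0.15, adjusted p = 1.848e-05), or 4.91-fold, in LP-1-eGFP and by 2.26 (SE 0.15, adjusted p = 1.068e-05), or 4.79-fold, in LP-1-cIAP2-eGFP. The lines differed by -0.04 in this response (95% interval -0.50 to 0.43, adjusted p = 0.953).

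**Figure D3:**
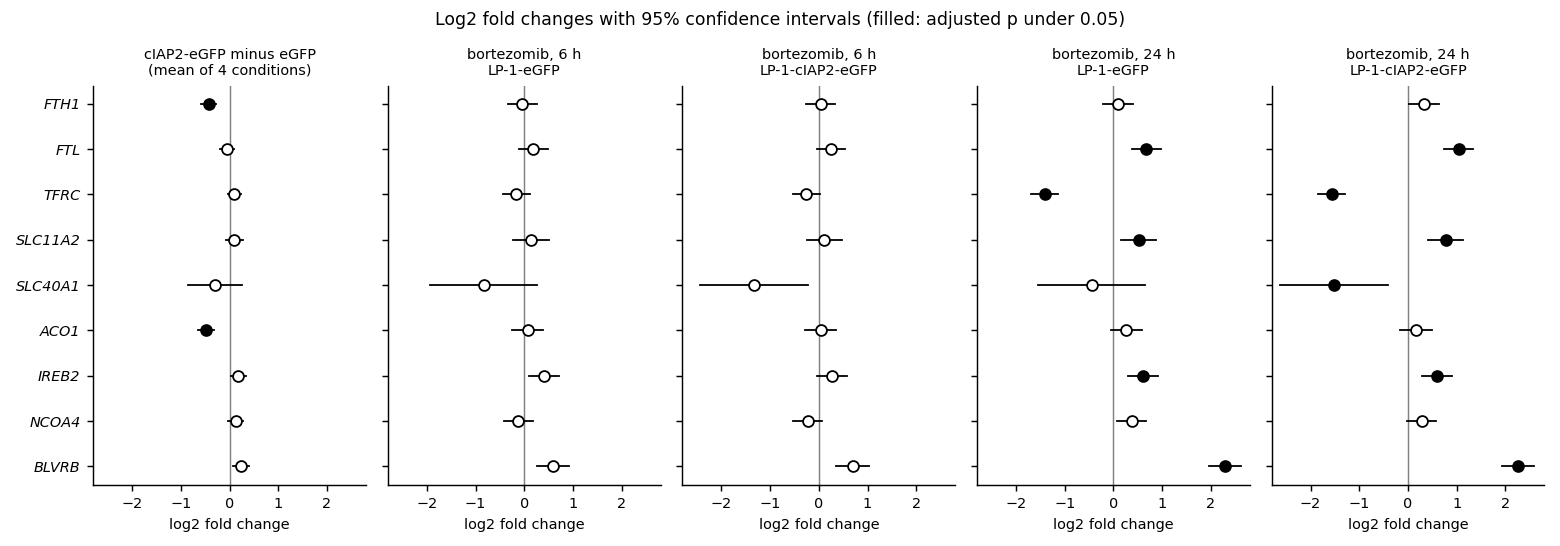
Log2 fold changes (horizontal axis) of the 9 genes by their brightest probes for the line difference and for bortezomib at 6 h and 24 h in each line; points are limma estimates, lines their 95% intervals, and filled points have adjusted p under 0.05. BLVRB lies near 2.3 and TFRC near -1.5 at 24 h in both lines, and no point is filled at 6 h.

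At 6 h none of the 9 genes passed limma's test in either line, beside 1.26% of all probes called higher and 0.691% lower in LP-1-eGFP and 0.762% higher and 0.323% lower in the cIAP2 line. In the last comparison 70.2% of the calls were higher, and 81.7% with 75th percentile scaling. At an unadjusted p under 0.05 there were 2 of 9 genes in each line, beside 11.8% of all probes in the control and 10.6% in LP-1-cIAP2-eGFP. The lowest adjusted p belonged to BLVRB in both lines. It read 13.43 and 13.37 untreated against 14.06 and 13.93 with bortezomib in LP-1-eGFP, and 13.71 and 13.63 against 14.32 and 14.42 in LP-1-cIAP2-eGFP, so that the treated arrays lay above the untreated ones. The changes were 0.60 (SE 0.15, adjusted p = 0.0844) and 0.69 (SE 0.15, adjusted p = 0.0683). Without the dim array, which is in neither comparison but enters the shared estimate of the spread, both passed (adjusted p = 0.0183 and 0.0149), and of all probes 3% were then called higher and 3.13% lower in LP-1-eGFP and 2.14% and 1.87% in LP-1-cIAP2-eGFP.

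No gene of the set passed limma's test of a difference between the lines in the response to bortezomib, at 6 h (0.00297% of all probes passed) or at 24 h (0.0712%), and none had an unadjusted p under 0.05 by its brightest probe, beside 2.05% and 8.1% of all probes. The lowest adjusted p at 24 h was 0.63. The intervals at 24 h reached from -2.63 to 0.50 for SLC40A1 and were narrower for the other 8 genes.

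When the 8 condition means of a gene were put in order, most neighbours could not be separated. In TFRC the 2 bortezomib conditions at 24 h came last, 1.32 below the next mean (adjusted p = 8.94e-06 over the 7 gaps of the gene), and the other 6 gaps did not pass. In BLVRB the same 2 conditions came first, 1.58 above the next (adjusted p = 8.123e-06), again with no other gap past the threshold. FTL also had these 2 conditions first, with a gap of 0.37 to the third (adjusted p = 0.139). In FTH1 and ACO1 the 4 control conditions filled the first 4 places, with gaps of 0.20 and 0.27 (log2) to the first LP-1-cIAP2-eGFP condition that did not pass when taken singly (adjusted p = 0.88 and 0.674). No gap passed in the other 4 genes.

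Among the 9684 genes measured well above background on every array, those whose brightest probe followed FTH1 most closely over the 16 arrays were CTTN (Pearson r = 0.97), CIZ1 (0.96), FTHL17 (0.96), HADHA (0.95) and DDX1 (0.95). Those closest to TFRC were PUS7, TAGLN2, PRDX4, GNL3 and EBPL, all with r = 0.99. These are descriptions over arrays that share conditions, and without the dim array each r changed by less than 0.01.

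The wider pathway was read through 54 other genes of iron and heme metabolism, of which 49 had a tested probe. Between the lines 8 were higher in the cIAP2 line and 9 lower, or 16.3% and 18.4% beside 6.26% and 9.84% of all probes, and 3 and 8 after 75th percentile scaling, beside 5.96% and 8.05% of all probes. The counts without the dim array were 16 higher and 11 lower, beside 11.1% and 12.2%. The median line difference of the list was 0.06 against -0.02 over all probes. ALAS1, the enzyme that starts heme synthesis, had the widest gap. It read 13.32 to 14.09 on the control arrays and 11.52 to 12.31 on the LP-1-cIAP2-eGFP arrays, a line difference of -1.90 (SE 0.09, adjusted p = 8.475e-07), or 3.73-fold lower. ISCA1, an iron-sulfur cluster assembly factor, was 2.01-fold lower (-1.01, SE 0.09, adjusted p = 5.215e-05). FLVCR1, a heme exporter, and SLC48A1, a heme transporter of the endosome and lysosome, were lower by smaller amounts (-0.45 and -0.58), the FLVCR1 call being lost with a slide block. The 8 genes called higher all differed by less than ALAS1 and ISCA1. The largest of them was SLC39A8, a metal importer, at 0.64 (SE 0.07, adjusted p = 0.000192), or 1.55-fold higher, a call lost with the mean of its probes. BLVRA, the other biliverdin reductase, was higher by 0.41 (adjusted p = 0.0044), a call lost with normexp.

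At 6 h of bortezomib 1 of the 49 pathway genes, HMOX1, passed in both lines, beside the shares of all probes given above for that time. HMOX1, the heme oxygenase that opens heme to biliverdin, read 12.59 and 12.79 untreated and 15.37 and 15.50 with bortezomib in LP-1-eGFP, and 12.84 and 12.66 against 14.97 and 15.01 in LP-1-cIAP2-eGFP. It rose 6.71-fold (log2 change 2.75, SE 0.16, adjusted p = 6.723e-05) and 4.72-fold (2.24, SE 0.16, adjusted p = 0.000404), and at 24 h its levels were 3.79-fold and 2.69-fold above untreated cells. FBXL5, which marks iron regulatory protein 2 for degradation, changed by -0.65 (adjusted p = 0.0386) in the control at 6 h and by -0.53 (adjusted p = 0.109) in LP-1-cIAP2-eGFP. The call in the control was lost with 75th percentile scaling, with normexp, with no filter on dim probes, with a slide block and in 12 of the 16 fits that left out 1 array. At 24 h it rose by 0.86 (adjusted p = 0.00103) in LP-1-cIAP2-eGFP, a call lost with array weights, and changed by 0.42 (adjusted p = 0.0506) in the control. When the dim array was left out, FBXL5 passed in both lines at both times, and at 6 h SLC39A14, a metal transporter, also passed in both (0.70 and 0.77, adjusted p = 0.0117 in each), with 3 pathway genes higher and 2 lower in the control, beside 3% and 3.13% of all probes, and 2 and 2 in the cIAP2 line, beside 2.14% and 1.87%. The HMOX1 change was larger at 6 h than at 24 h by value in both lines and that of BLVRB larger at 24 h. The difference between the times was not tested.

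At 24 h 8 pathway genes were higher and 11 lower in LP-1-eGFP, or 16.3% and 22.4% beside 9.81% and 11.2% of all probes, and 3 and 11 after 75th percentile scaling, beside 7.83% and 11.3%. In the cIAP2 line 7 were higher and 15 lower, or 14.3% and 30.6% beside 11.1% and 17.5%. Without the dim array the counts were 11 and 13 in LP-1-eGFP, beside 14.5% and 17% of all probes, and 10 and 13 in LP-1-cIAP2-eGFP, beside 12.56% and 14.15%. The median change of the list was -0.07 in the control and -0.33 (log2) in LP-1-cIAP2-eGFP, against -0.03 and -0.16 over all probes. By role, the 16 genes of mitochondrial iron and iron-sulfur clusters gave 3 higher and 5 lower in the control and 4 and 6 in LP-1-cIAP2-eGFP, the 8 of heme synthesis 2 and 2, then 0 and 3, and the 7 of uptake and reduction 1 and 2 in each line. None of the 4 storage and delivery genes passed in either line, but without the dim array PCBP1 (-0.35, adjusted p = 0.0308) and HERC2 (0.63, adjusted p = 0.0261) passed in LP-1-eGFP.

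STEAP1, a metalloreductase, rose by 1.69 (SE 0.25, adjusted p = 0.00101) in LP-1-eGFP, where the treated arrays read 14.15 and 14.06 and the untreated ones 12.77 and 12.06. In LP-1-cIAP2-eGFP it rose by 3.02 (SE 0.25, adjusted p = 3.37e-05), or 8.10-fold, with 15.30 and 15.07 against 12.29 and 12.04. The difference between the lines, 1.33, did not pass (adjusted p = 0.384). STEAP3, the reductase that works beside TFRC in the endosome, fell in both lines, with log2 changes of -1.58 (adjusted p = 0.00753) in the control and -2.12 (adjusted p = 0.0012) in LP-1-cIAP2-eGFP, where the dim array was not well above background and the change without it was -1.47 (adjusted p = 0.000303). The STEAP3 call in the control was lost without its untreated 24 h replicate 2.

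In the same order of lines, UROS, an enzyme of heme synthesis, fell with log2 changes of -1.93 (adjusted p = 0.000416) and -2.57 (adjusted p = 6.814e-05), the second being -2.12 without the dim array. BMP6, a signal for the iron hormone hepcidin, fell with changes of -1.66 (adjusted p = 6.994e-05) and -2.21 (adjusted p = 1.235e-05). SLC25A37, a mitochondrial iron importer, fell by 1.47 (adjusted p = 0.00599) in LP-1-cIAP2-eGFP and changed by -0.72 (adjusted p = 0.144) in the control. Its treated LP-1-cIAP2-eGFP arrays read 8.36, the dim array, and 9.55. Without that array the changes were -0.88 (adjusted p = 0.0044) in LP-1-cIAP2-eGFP and -0.72 (adjusted p = 0.00349) in the control. ISCA1 rose 2.04-fold in LP-1-eGFP (adjusted p = 0.00265) and 1.90-fold in LP-1-cIAP2-eGFP (adjusted p = 0.00372), calls that the mean of its probes lost in both lines and array weights in LP-1-cIAP2-eGFP.

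ABCG2, a transporter that also exports porphyrins, fell to or near background in both lines. In LP-1-eGFP it read 7.76 and 7.95 untreated and 3.76 and 5.02 with bortezomib, 1 of the treated arrays being well above background, so that the fitted change of -3.46 (SE 0.51, adjusted p = 0.00106) includes a value not above it. In LP-1-cIAP2-eGFP it read 8.78 and 8.51 untreated and was not well above background on either treated array. The untreated mean was 5.83-fold above the lowest signal that counted as above background on each treated array. This is not a strict bound, since a probe with a higher signal can also be called not well above background. The adjusted p of 7.548e-05 belongs to limma's fitted change, which rests on treated values not above background.

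**Figure D4:**
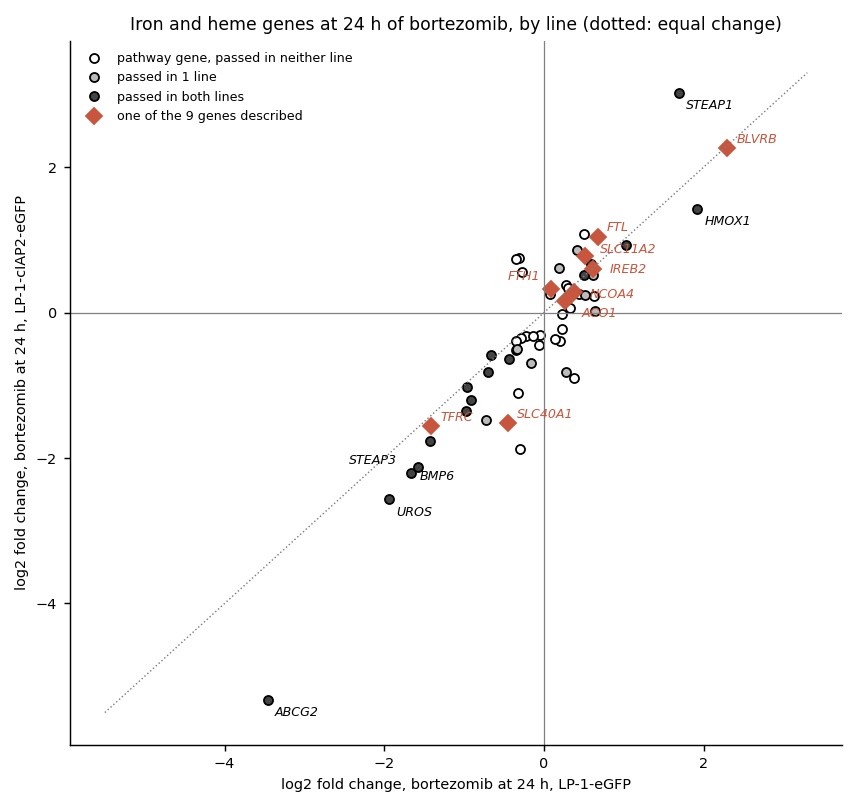
Log2 fold change with bortezomib at 24 h in LP-1-eGFP (horizontal axis) and LP-1-cIAP2-eGFP (vertical axis) for the 49 pathway genes (circles, shaded by the number of lines in which they passed) and the 9 genes described (diamonds); the dotted line marks equal change. BLVRB, HMOX1 and STEAP1 lie at the upper right, TFRC with STEAP3, BMP6 and UROS at the lower left, and ABCG2 far below the rest, at a fitted value that is not a measured level in LP-1-cIAP2-eGFP.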

How the data were processed

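The authors deposited 1-colour Agilent scanner files (Feature Extraction 10.7.3.1, linear intensity, human gene expression 8×60K v2 arrays) and a table of quantile normalized log2 values centred on each probe. The deposited table matched each array's values computed here with r of 0.997 or more. It was used as an alternative only. From the processed signal intensity, spots called outliers by the scanner software were left out, log2 values of the spots of a probe averaged and arrays quantile normalized. Tested were the probes whose 2 replicate arrays both exceeded background in any condition, by limma 3.58.1 in R 4.3.3 with 1 mean per condition over 16 arrays, Benjamini-Hochberg adjustment over all tested probes and calls at adjusted p under 0.05. The fit was tested on simulated data in which all arrays of a probe had the same spread. The wider spread of the condition with the dim array was not simulated. Symbols came from RefSeq accessions and cover 55.7% of probes. LYZ and HBA1 of the marker list were not analysed here, and a few listed genes are not reported here. All RNA was extracted together per the labels, and the arrays lay on 2 slides. The members and lists were chosen with earlier results of these data known. Named were all member probes, pathway genes called with over 2-fold change (at most 6 per direction and comparison), BIRC3, the markers and the 5 genes closest to FTH1 and to TFRC. FLVCR1, SLC48A1, SLC39A8, BLVRA, FBXL5, SLC39A14, PCBP1 and HERC2 were named after their values were seen.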

Additional observations from a re-analysis of the deposited data

How the results depend on the processing

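The brightest FTH1 probe was lower in LP-1-cIAP2-eGFP under all 8 settings that kept this probe, with line differences between -0.54 and -0.43 (adjusted p = 0.0126 or less), and between -0.46 and -0.40 when each array was left out. The mean of the 4 FTH1 probes gave -0.63. The widest contrast between FTH1 probes was -0.86 with 75th percentile scaling and between -0.92 and -0.86 with each array left out. No called member value changed sign. The replicate numbers did not clearly pair the arrays. Their deviations correlated at -0.113 to 0.236 over 28 pairs of conditions, with a median of 0.036 and 7 pairs over 0.1. Whether cultures with the same number were run together was not tested. With a replicate block 2 genes were called for the line, 5 for bortezomib at 24 h in the control and 6 in LP-1-cIAP2-eGFP, as without it, the FTH1 line difference was -0.43 (adjusted p = 0.0011), and no call of a brightest probe among the 9 genes changed, while the second NCOA4 probe, A_33_P3319463, gained a call in LP-1-cIAP2-eGFP at 24 h (0.58, adjusted p = 0.0131). With a slide block it was -0.46 (adjusted p = 0.0126). Arrays number 2 per condition, which limits precision, and leaving out 1 leaves a lone array that is assumed to vary like the others.

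Some counts of called members moved by over 1.5 times. For bortezomib at 24 h in LP-1-eGFP there were 3 rather than 5 with 75th percentile scaling and with normexp, and 3 to 6 with each array left out (3 without untreated replicate 2 or bortezomib replicate 1). In LP-1-cIAP2-eGFP array weights gave 3 rather than 6, and single arrays left out gave 4 to 7 (4 without untreated 24 h replicate 2). For the line difference there were 4 rather than 2 among probes above background on all 16 arrays, and 2 to 4 with each array left out (4 without either bortezomib 24 h array of LP-1-cIAP2-eGFP). At 6 h the 0 calls became 2 in the control and 1 in the cIAP2 line among probes above background on all 16 arrays, 3 and 2 with array weights, and up to 1 and 2 with single arrays left out. The difference between the lines at 24 h had 0 or 1, the 1 being SLC40A1 without the brighter array of its condition (-1.97, adjusted p = 0.0112). The rule with the study's ANOVA cutoffs kept 0 genes by brightest probe in every setting. The count of separable neighbours was 4 rather than 2 among probes above background on all 16 arrays, and 2 to 3 with each array left out.

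Of the pathway genes, called for the line were 11 with 75th percentile scaling, 11 with no filter and 10 with a slide block, rather than 17, and 12 to 30 with single arrays left out. At 6 h in LP-1-eGFP there were 1 with normexp, no filter or a slide block, 4 among probes above background on all 16 arrays and 18 with array weights, rather than 2, and 1 to 5 with single arrays left out. In LP-1-cIAP2-eGFP there were 3 and 5 with those last 2 settings, rather than 1, and 1 to 4. At 24 h there were 12 with no filter in LP-1-eGFP, rather than 19, and 11 to 24, and 11 with array weights in LP-1-cIAP2-eGFP, rather than 22, and 15 to 36. The difference between the lines at 24 h had 0 to 16, the 16 without the brighter array of LP-1-cIAP2-eGFP with bortezomib. These pathway and neighbour counts were added after seeing the data. The causes were not tested. At 24 h the calls of SLC11A2 in the control and SLC40A1 in LP-1-cIAP2-eGFP, with adjusted p near 0.05, and those of IREB2 in both lines were lost under several settings.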
